A study of Mus musculus with 6 samples.

Results

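The Krüppel-like factor (KLF) family was followed here through 9 of its genes, Klf2, Klf3, Klf4, Klf5, Klf6, Klf7, Klf9, Klf10 and Klf13, in fibroblasts of mouse breast tumours. The genes came from a fixed list of names, and each had to have a row in the deposited table of normalised counts. All 9 did, of 12235 genes in that table, and all 9 passed the filter on low values. RNA was measured in 3 libraries of Ly6C+ and 3 libraries of Ly6C- podoplanin-positive cancer-associated fibroblasts (pCAFs). Both groups were viable cells gated as negative for Ter119, CD45 and EpCAM and positive for PDPN, and they differed in the gate on the surface protein Ly6C. In both groups the tumours came from 4T1 cells, a mouse mammary carcinoma line, of which 100000 were placed in the mammary fat pad of BALB/c females at 8 weeks of age. One label calls the injected cells 4T1-GFP and another 4T1-luc. At a size of 1 cm the tumours were taken out and digested with collagenase before sorting, so the measured cells had passed through enzymatic dissociation in both groups.

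KLF proteins are zinc-finger transcription factors that bind GC-rich and CACCC-type elements in DNA. Their amino-terminal parts differ, and with them the partners they recruit. Klf2, Klf4, Klf5, Klf6 and Klf7 are mostly described as activators, although several of them also repress. Klf3 represses through the corepressor CtBP, and Klf9, Klf10 and Klf13 can recruit Sin3A. In stromal cells the family is known for holding cells quiescent, for switching smooth muscle genes off and on, and for responding early to serum, hormones and mechanical stress.

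Promoters are shown for Klf4, Klf2 and Klf6, the genes with the largest positive differences below, and for Klf7, whose values in the groups overlapped. RefSeq windows on GRCm38.p6 (mm10), from 250 bases before to 50 bases after the annotated start, were found for 7 of the 9 genes. Each is written 5′ to 3′ on the gene's own strand. Capitals mark the GC box (GGGCGG), the CACCC box (CACCC) and, in Klf2, a match to the MEF2 site, each searched on both strands. Boxes can overlap. The windows lie at chr4:55532426-55532725 on the minus strand (Klf4), chr8:72318812-72319111 on the plus strand (Klf2), chr13:5861239-5861538 on the plus strand (Klf6) and chr1:64121340-64121639 on the minus strand (Klf7).
Klf4: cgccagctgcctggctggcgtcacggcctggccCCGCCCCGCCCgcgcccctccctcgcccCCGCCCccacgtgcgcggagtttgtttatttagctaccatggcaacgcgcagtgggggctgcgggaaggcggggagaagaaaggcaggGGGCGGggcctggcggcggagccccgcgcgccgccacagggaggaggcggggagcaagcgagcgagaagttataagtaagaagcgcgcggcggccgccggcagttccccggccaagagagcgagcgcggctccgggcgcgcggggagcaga
Klf2: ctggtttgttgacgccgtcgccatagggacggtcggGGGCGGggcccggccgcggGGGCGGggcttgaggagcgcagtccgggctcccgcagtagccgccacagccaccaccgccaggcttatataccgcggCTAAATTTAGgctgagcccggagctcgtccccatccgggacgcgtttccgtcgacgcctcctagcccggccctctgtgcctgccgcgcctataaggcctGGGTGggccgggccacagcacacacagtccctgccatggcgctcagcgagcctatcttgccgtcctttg
Klf6: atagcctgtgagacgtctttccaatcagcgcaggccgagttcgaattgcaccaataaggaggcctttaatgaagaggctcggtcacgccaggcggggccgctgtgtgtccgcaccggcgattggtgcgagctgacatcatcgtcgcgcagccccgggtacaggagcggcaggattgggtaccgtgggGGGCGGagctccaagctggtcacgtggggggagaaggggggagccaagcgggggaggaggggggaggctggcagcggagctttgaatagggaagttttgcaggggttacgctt
Klf7: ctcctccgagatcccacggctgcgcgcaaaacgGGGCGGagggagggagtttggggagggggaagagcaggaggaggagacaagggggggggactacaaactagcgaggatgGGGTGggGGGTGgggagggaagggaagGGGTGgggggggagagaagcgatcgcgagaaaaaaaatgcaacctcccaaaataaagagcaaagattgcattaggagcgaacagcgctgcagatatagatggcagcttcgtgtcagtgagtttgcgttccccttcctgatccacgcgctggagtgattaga

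The GC box, the element that KLF and SP proteins themselves bind, occurred 4 times in the Klf4 window, 2 times in that of Klf2, and 1 time each in those of Klf6 and Klf7. Of 32851 windows in the RefSeq table, 35.7% held at least 1 GC box and 57.5% at least 1 CACCC box. The Klf7 window held 3 CACCC boxes and the Klf2 window 1, while the Klf4 and Klf6 windows had no match. The Klf2 window held a MEF2 site from 118 to 109 bases before the start, a motif found in 3.19% of all windows. MEF2 factors are known to act on Klf2 in endothelium, downstream of the kinase ERK5. The palindromic E-box CACGTG stood once in the Klf4 window and once in the Klf6 window, against 7.15% of all windows with a match. The Klf6 window also held 4 CCAAT boxes (37.4% of windows had at least 1). All 4 windows were rich in G and C, with 74.3% in Klf4, 69.3% in Klf2, 63.0% in Klf6 and 58.3% in Klf7, against a median of 52.7%. These matches describe letters in the windows, and no binding was measured.

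The libraries were 3′ end mRNA libraries with 2150531 to 2818269 reads in the Ly6C+ group and 1176909 to 1721480 in the Ly6C- group. Values are the deposited normalised counts, in which 1 read was worth 0.610 to 1.31. They were not scaled for length, and levels are compared here between libraries and not between genes. The label was checked on Ly6c1, which had 3849, 3142 and 2316 normalised counts in the Ly6C+ libraries and 88.6, 77.4 and 65.6 in the Ly6C- libraries. A fold divides one group mean by the other. The log2 fold change is the limma estimate on log2(value + 1), positive where Ly6C+ is higher, and it is too small for genes with low values. Adjusted p-values are those of this fit over 9646 genes, with Benjamini-Hochberg adjustment and a threshold of 0.05. The labels do not say whether the libraries came from separate mice, so p-values measure only the spread between these libraries, which may be technical. In bulk libraries of this kind, fewer cells of a type and less RNA per cell cannot be told apart.

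Of the 9 genes, 5 were higher in Ly6C+ pCAFs at this threshold (Klf2, Klf3, Klf4, Klf6 and Klf9), 1 was lower (Klf5) and 3 did not pass (Klf7, Klf10 and Klf13). Of all genes tested, 9.41% were called higher, 7.66% lower and 17.1% in either direction. With edgeR the same 6 genes passed in the same directions, beside 9.59% of all genes higher and 8.25% lower (17.8% in all), and likewise with DESeq2, beside 8.64% higher and 7.43% lower (16.1% in all). The same 6 genes had no overlap between the groups, 5 with the Ly6C+ libraries higher and 1 with them lower. Of all tested genes, 17.1% had every Ly6C+ library above every Ly6C- library and 16.1% had every one below. The median log2 fold change was 0.78 over the 9 genes and -0.0007 over all genes tested. The names were chosen by gene family, with the normalised counts of these 6 libraries and results of this same contrast already known, so these counts and the p-values below describe the family and are no independent support.

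**Figure D1:**
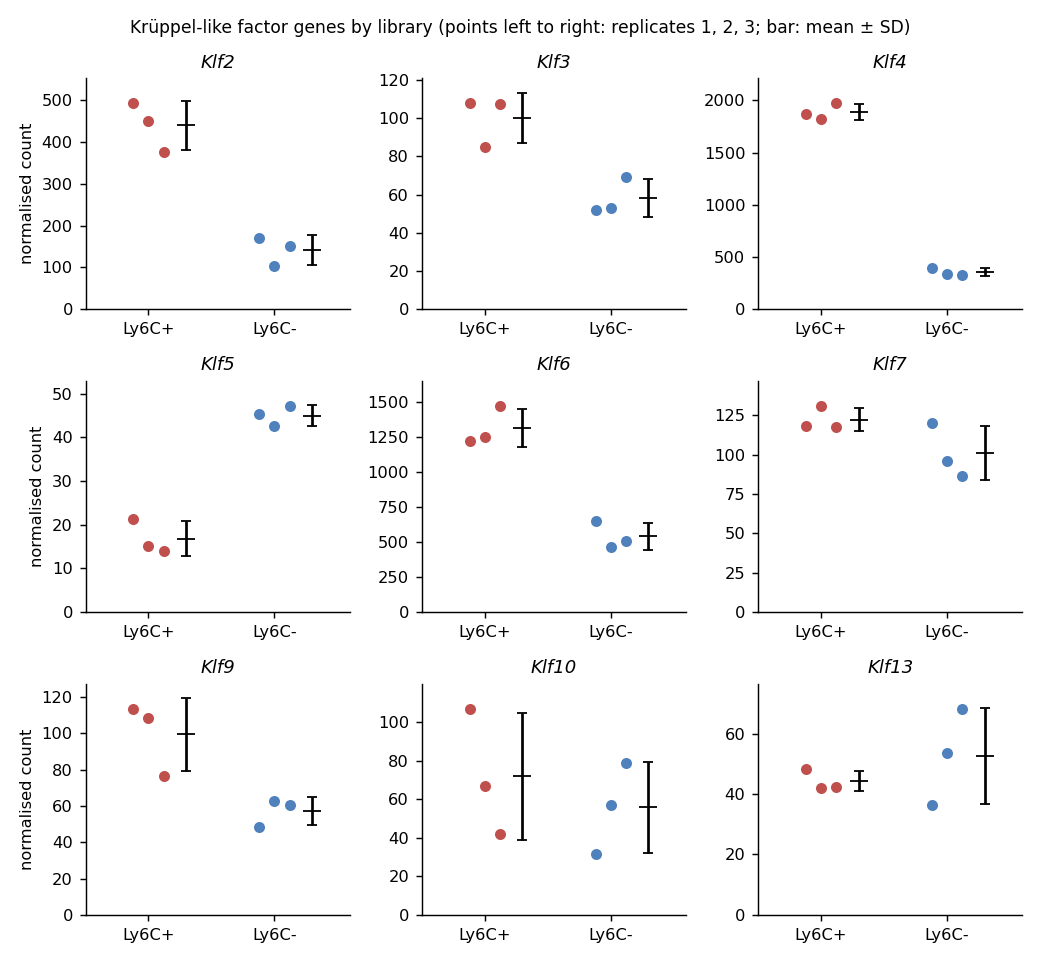
Normalised counts of the 9 KLF genes in each library, Ly6C+ on the left and Ly6C- on the right of each panel, with the group mean ± SD (n = 3) beside the points and a separate linear axis per gene that starts at 0. The Ly6C+ points of Klf2, Klf3, Klf4, Klf6 and Klf9 lie above all Ly6C- points, those of Klf5 lie below, and those of Klf7, Klf10 and Klf13 overlap.

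Klf4, which in other tissues helps to build the epithelial barrier, silences smooth muscle genes and is one of the classical reprogramming factors, had the largest positive difference of the 9. It had 1868, 1823 and 1974 normalised counts in the 3 Ly6C+ libraries, against 398, 333 and 328 in the 3 Ly6C- libraries. The libraries of each group lay close together and the groups were far apart. The means were 1888 ± 77.7 in Ly6C+ and 353 ± 38.8 in Ly6C- pCAFs (SD, n = 3 each), a 5.35-fold difference (log2 fold change 2.42, SE 0.15, 95% interval 2.08 to 2.76; limma adjusted p = 2.10e-06). It rested on 8043 reads in the Ly6C+ and 1046 reads in the Ly6C- group. By the size of its log2 fold change it ranked 194th from the top among the genes tested. The gene is protein coding and lies on mm10 chromosome 4 from 55527143 to 55532466, minus strand, with no other annotated gene over it.

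Klf2, a factor of quiescent endothelium and of resting lymphocytes, had 493, 452 and 377 normalised counts in Ly6C+ libraries, against 171, 103 and 152 in Ly6C- libraries. Even the lowest Ly6C+ library was far above the highest Ly6C- library. The means were 441 ± 59.0 in Ly6C+ and 142 ± 35.2 in Ly6C- pCAFs (SD, n = 3 each), a 3.10-fold difference (log2 fold change 1.65, SE 0.21, 95% interval 1.18 to 2.12; limma adjusted p = 0.00028). The spread among libraries exceeded counting error, with a coefficient of variation of 13.4% in Ly6C+ and 24.8% in Ly6C-, where counting alone gives 3.98% and 8.54%. Klf2 lies on chromosome 8 from 72319033 to 72321656, plus strand.

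Klf6, a widely expressed factor that is induced in injured tissue and is known in activated liver stellate cells, had 1222, 1253 and 1472 normalised counts in Ly6C+ libraries, against 649, 464 and 510.0 in Ly6C- libraries. The groups were again apart. The means were 1316 ± 136 in Ly6C+ and 541 ± 95.9 in Ly6C- pCAFs (SD, n = 3 each), a 2.43-fold difference (log2 fold change 1.29, SE 0.17, 95% interval 0.91 to 1.67; limma adjusted p = 0.000402). Klf6 lies on chromosome 13 from 5861482 to 5870394, plus strand. Klf2, Klf4 and Klf6 passed the test in all 18 alternative settings, with log2 fold changes of 1.43 to 1.80, 2.23 to 2.51 and 1.09 to 1.43.

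Klf5, an activator tied to proliferation of epithelial and smooth muscle cells, was the one gene of the 9 with lower values in Ly6C+ pCAFs that passed the test. It had 21.3, 15.0 and 13.9 normalised counts in Ly6C+ libraries, against 45.3, 42.5 and 47.2 in Ly6C- libraries. The Ly6C- libraries were nearly level and the groups did not overlap. The means were 16.8 ± 4.01 in Ly6C+ and 45.0 ± 2.34 in Ly6C- pCAFs (SD, n = 3 each), 2.68-fold higher in Ly6C- (log2 fold change -1.39, SE 0.25, 95% interval -1.95 to -0.84; limma adjusted p = 0.0028). The gene had few reads, 73 in Ly6C+ and 132 in Ly6C-, so counting alone gives a coefficient of variation of 20.3% and 15.1%, against observed ones of 23.9% and 5.21%. It passed in all 18 alternatives, with log2 fold changes of -1.58 to -1.21. Klf5 lies on chromosome 14 from 99298691 to 99315036, plus strand.

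Klf7, an activator known from neuronal and adipocyte development, had 118, 131 and 117 normalised counts in Ly6C+ libraries, against 120.1, 96.1 and 86.5 in Ly6C- libraries. The groups overlapped through the first Ly6C- library. The log2 fold change was 0.29 (SE 0.19, 95% interval -0.13 to 0.70; limma adjusted p = 0.361), an interval that leaves out a difference as large as that of Klf2, Klf4 or Klf6. Klf7 spans 64029447 to 64122282 on chromosome 1, minus strand, and the lincRNA gene Gm26649 lies on the opposite strand over its last kilobase. The handling of strand is not given in the sources used here, so reads of the pair cannot be told apart. Annotated genes also overlap the bodies of Klf3, Klf9 and Klf13, and none of the overlapping genes had reads in the table.

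Among the repressors, Klf3, which is known in adipocytes, B cells and red cell precursors, had 108, 84.9 and 107 normalised counts in Ly6C+ libraries, against 52.2, 52.7 and 69.5 in Ly6C- libraries. The lowest Ly6C+ library was above the highest Ly6C- library. The means were 100.1 ± 13.1 in Ly6C+ and 58.1 ± 9.84 in Ly6C- pCAFs (SD, n = 3 each), a 1.72-fold difference (log2 fold change 0.78, SE 0.21, 95% interval 0.33 to 1.23; limma adjusted p = 0.0228). The call was lost when replicate 1 or 3 of the Ly6C+ group was left out (limma adjusted p = 0.0884 and 0.0732), or replicate 1 or 2 of the Ly6C- group (0.0596 and 0.100). It was lost too with each library scaled to its total (0.0658) and with no mean-variance trend (0.0530). Klf3 lies on chromosome 5 from 64803388 to 64832901, plus strand.

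Klf9, which is induced by glucocorticoids and thyroid hormone, had 113, 108 and 76.5 normalised counts in Ly6C+ libraries, against 48.2, 63.0 and 60.3 in Ly6C- libraries. Ly6C+ replicate 3 was the nearest to the Ly6C- values. The means were 99.4 ± 20.001 in Ly6C+ and 57.2 ± 7.85 in Ly6C- pCAFs (SD, n = 3 each), a 1.74-fold difference (log2 fold change 0.78, SE 0.22, 95% interval 0.29 to 1.26; limma adjusted p = 0.0313). Leaving out replicate 1 or 2 of the Ly6C+ group gave a limma adjusted p of 0.125 each, and leaving out replicate 1 or 2 of the Ly6C- group gave 0.0848 and 0.0670. The call was lost there, with total scaling (0.0791) and with no trend (0.0692). Klf9 lies on chromosome 19 from 23141226 to 23168134, plus strand.

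Klf10, an early TGF-beta response gene, was the most uneven of the 9 within both groups. It had 107, 66.9 and 41.7 normalised counts in Ly6C+ libraries, against 31.5, 57.0 and 78.7 in Ly6C- libraries. The coefficient of variation was 45.7% in Ly6C+ and 42.4% in Ly6C-, where counting alone gives 9.71% and 13.7%. The groups overlapped, and the log2 fold change of 0.35 had a wide interval of -0.48 to 1.18 (SE 0.38, limma adjusted p = 0.608). Without Ly6C- replicate 1 it was -0.0023. Klf10 lies on chromosome 15 from 38291463 to 38300706, minus strand.

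Klf13, which is known in T cells as an activator of Ccl5 and in heart development, had 48.2, 42.1 and 42.5 normalised counts in Ly6C+ libraries, against 36.4, 53.6 and 68.2 in Ly6C- libraries. All Ly6C+ values fell inside the Ly6C- range. The log2 fold change was -0.21 (SE 0.25, 95% interval -0.76 to 0.35; limma adjusted p = 0.666). Klf13 lies on chromosome 7 from 63886351 to 63938915, minus strand.

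**Figure D2:**
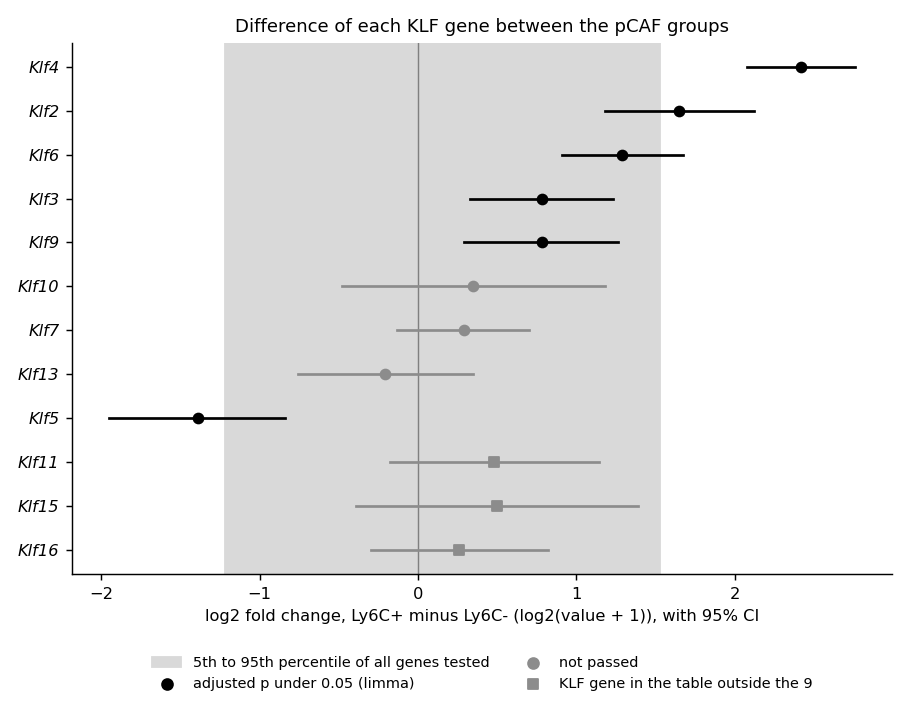
Log2 fold change (Ly6C+ minus Ly6C-, on log2(value + 1)) with its 95% interval for the 9 KLF genes (circles) and the 3 further KLF genes in the table (squares), with genes that passed the limma test in black. The grey band runs from -1.22 to 1.53, the 5th to 95th percentile of all genes tested; the points of Klf4, Klf2 and Klf5 lie outside it.

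The table held 3 KLF genes beyond the 9. Klf11, a TGF-beta-inducible relative of Klf10, had a log2 fold change of 0.48 (limma adjusted p = 0.338), and Klf16 one of 0.26 (adjusted p = 0.563). Klf15, another glucocorticoid-induced KLF, had 8.54, 7.52 and 6.95 normalised counts in Ly6C+ libraries, against 3.94, 5.10 and 6.56 in Ly6C- libraries. Its groups did not overlap, but it rested on 33 and 15 reads and did not pass (log2 fold change 0.50, adjusted p = 0.474). None of these 3 passed in any alternative that fitted it. With the SP genes, the closest relatives of the KLFs, 6 further family genes were tested, of which 0 passed by limma, edgeR or DESeq2 (0 at an unadjusted limma p under 0.05), and their median log2 fold change was 0.28. Among all genes tested, 17.1% passed by limma, 17.8% by edgeR and 16.1% by DESeq2, in either direction. Sp6 was below the filter on low values, with 0, 0.752 and 0 normalised counts in Ly6C+ libraries, against 11.8, 6.81 and 2.62 in Ly6C- libraries. In the fit with no filter it was lower in Ly6C+ (log2 fold change -2.56, limma adjusted p = 0.00824), on 1 read in Ly6C+ and 22 in Ly6C-.

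Summed over the 9 genes, family reads made up 0.238%, 0.232% and 0.254% of all reads in the Ly6C+ libraries, against 0.107%, 0.0864% and 0.0907% in the Ly6C- libraries. The means were 0.241% ± 0.0115 in Ly6C+ and 0.0949% ± 0.0111 in Ly6C- pCAFs (SD, n = 3 each). The make-up of this sum differed between the groups too. Klf4 gave 45.6%, 45.8% and 46.8% of the family reads in Ly6C+ and 25.6%, 26.3% and 23.4% in Ly6C- libraries. Klf5 gave 0.409% ± 0.0995 in Ly6C+ and 3.22% ± 0.258 in Ly6C- libraries. The share of Klf2 overlapped between the groups (10.8% ± 1.63 in Ly6C+ and 10.01% ± 1.63 in Ly6C-). Klf3 was higher in Ly6C+ pCAFs by its normalised count, yet its share of family reads was lower, 2.44% ± 0.265 in Ly6C+ and 4.16% ± 0.800 in Ly6C-. Shares are used here to compare libraries, and which gene has more transcripts is not read from them.

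The ratio of reads on Klf4 to reads on Klf5, a pair with opposing roles in intestinal epithelium and in smooth muscle, was 87.5, 121 and 142 in the Ly6C+ libraries and 8.78, 7.84 and 6.94 in the Ly6C- libraries. A ratio within a library does not depend on the scaling between libraries. The Klf4 to Klf7 ratio was 15.8, 13.9 and 16.8 in Ly6C+ libraries, against 3.31, 3.47 and 3.79 in Ly6C- libraries, and the Klf6 to Klf7 ratio was 10.3, 9.58 and 12.5 in Ly6C+ and 5.40, 4.83 and 5.89 in Ly6C-. The Klf2 to Klf4 ratio went the other way, with 0.264, 0.248 and 0.191 in Ly6C+ libraries, against 0.431, 0.309 and 0.464 in Ly6C- libraries. The groups were apart for each of these 4 ratios. The pairs were chosen with results of these data known. Their ratios restate the differences of the single genes above and are no further support.

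**Figure D3:**
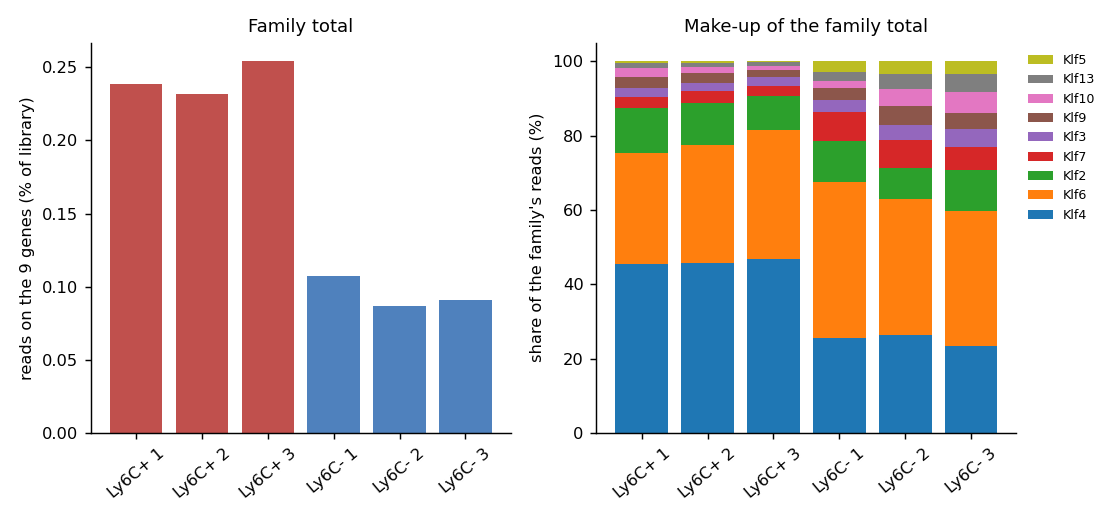
Left, reads on the 9 KLF genes in percent of all reads of each library; right, the share of those reads on each gene in percent. The family total is 0.232% to 0.254% of reads in Ly6C+ libraries and 0.0864% to 0.107% in Ly6C- libraries, and the Klf4 share is 45.6% to 46.8% in Ly6C+ against 23.4% to 26.3% in Ly6C- libraries.

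Markers of other cell types that express KLF genes are given here beside the family. By limma, 9.41% of all genes tested were called higher in Ly6C+ and 7.66% lower. For endothelium, which expresses Klf2 and Klf4, 6 of 12 listed markers had a row, and they summed to 23.3 to 42.7 normalised counts in Ly6C+ and 24.9 to 163 in Ly6C- libraries. Of the 4 tested, 1 rose (Tek) and 3 fell (Kdr, Egfl7 and Esam). Tek, an angiopoietin receptor gene, had 25.6, 13.5 and 16.2 normalised counts in Ly6C+ libraries, against 0, 0.851 and 2.62 in Ly6C- libraries (log2 fold change 3.32, SE 0.56; limma adjusted p = 0.00173). Kdr, a VEGF receptor gene, had 8.54, 4.51 and 7.73 in Ly6C+ libraries, against 88.6, 94.4 and 10.5 in Ly6C- libraries, and so carried most of the sum in a pair of Ly6C- libraries. The Kdr call (adjusted p = 0.0225) was lost without any 1 library other than Ly6C- replicate 3, at 0.0502 to 0.111. The Egfl7 call (0.0288) was lost without replicate 2 or 3 of Ly6C+ or replicate 1 or 2 of Ly6C-, at 0.0744 to 0.103. The Esam call (0.0479) was lost without any Ly6C+ library or without Ly6C- replicate 2, at 0.0743 to 0.160. Pecam1 stayed at or below 4.25 in every library and Cldn5 was at 0 in all Ly6C+ libraries. The part of endothelial RNA in the Klf2 and Klf4 differences was not tested.

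For epithelium, which expresses Klf5 and Klf4, all 11 listed markers had a row, with sums of 18.3, 58.6 and 60.3 in Ly6C+ libraries, against 410.4, 232 and 121 in Ly6C- libraries. Of the 5 tested, 2 fell in Ly6C+ pCAFs by limma, as Klf5 did, and 3 (Krt7, Krt8 and Krt18) did not pass. DESeq2 also called 2 of the 5. With edgeR 4 passed, as Krt8 and Krt18 were lower in Ly6C+ too (log2 fold change -2.54 and -2.52; edgeR adjusted p = 0.0240 and 0.0238). Krt14 had 0.610, 0.752 and 0.773 normalised counts in Ly6C+ libraries, against 25.6, 40.8 and 26.2 in Ly6C- libraries (log2 fold change -4.19, SE 0.41). Krt19 had 4.88, 3.01 and 3.86 in Ly6C+ libraries, against 57.1, 24.7 and 53.8 in Ly6C- libraries (-3.16, SE 0.38). These keratin genes were high in all Ly6C- libraries. Krt18 varied more, with 3.66, 24.1 and 27.8 in Ly6C+ libraries, against 183, 97.8 and 20.98 in Ly6C- libraries. Epcam stayed at or below 2.95, and Krt5 was at 0 in all Ly6C+ libraries. The part of epithelial RNA in the Klf5 difference was not tested.

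For leukocytes, in which Klf2 and Klf6 are active, 10 of 13 listed markers had a row, with sums of 946, 233 and 222 in Ly6C+ libraries, against 153, 74.0 and 64.2 in Ly6C- libraries. Of the 8 tested, 1 rose and 7 did not pass by limma. The one that rose was Cd3e, a T cell receptor subunit gene, with 165, 88.7 and 120.5 normalised counts in Ly6C+ libraries, against 19.7, 18.7 and 10.5 in Ly6C- libraries (log2 fold change 2.86, SE 0.30; limma adjusted p = 6.45e-05). Every Ly6C+ library was high in Cd3e, and the gene passed in all 18 alternatives. Ptprc, the gene of CD45, stayed at or below 4.88 and was at 0 in all Ly6C- libraries. Ly6C+ replicate 1 stood apart through the granulocyte genes S100a9 and S100a8, at 478 and 179 normalised counts. With edgeR S100a9 passed as well (log2 fold change 10.63, edgeR adjusted p = 0.0486). It had 784, 6 and 3 reads in the Ly6C+ libraries and 0 in the Ly6C- group. Without Ly6C+ replicate 1 the log2 fold change was 1.56 for Klf2, 2.43 for Klf4 and 1.34 for Klf6, each past the limma test. Cd3e was still higher in the other Ly6C+ libraries than in any Ly6C- library. So were the leukocyte sums, but Cd3e is part of them. The leukocyte markers Csf1r, Cd68 and Cd14 overlapped between the groups and did not pass (limma adjusted p = 0.718, 0.680 and 0.311).

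For pericytes, 8 of 8 markers had a row and summed to 171 to 231 in Ly6C+ and 407 to 503 in Ly6C- libraries. Of the 5 tested, 1 rose (Kcnj8), 3 fell (Cspg4, Mcam and Notch3) and 1 did not pass (Abcc9). Most of the Ly6C- sum was Cspg4, with 25.0, 27.1 and 28.6 normalised counts in Ly6C+ libraries, against 324, 378 and 399.9 in Ly6C- libraries (log2 fold change -3.72, SE 0.18). Kcnj8 went the other way, with 115, 102 and 136 in Ly6C+ libraries, against 30.5, 39.98 and 19.7 in Ly6C- libraries (1.98, SE 0.26). The part of leukocyte and pericyte RNA in the KLF differences was not tested. The 9 fibroblast markers summed to 67405 to 76351 in Ly6C+ and 45816 to 60424 in Ly6C- libraries. Of these 9, 5 rose (Pdgfra, Dcn, Col3a1, Pdpn and Lum) and 4 did not pass (Col1a1, Col1a2, Thy1 and Fap). Col3a1 had means of 30585 in Ly6C+ and 15688 in Ly6C- pCAFs, while those of Col1a2 were 23667 and 23475.

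Genes upstream of the family and partners of its proteins were read from the same fit. By limma, 17.1% of all genes tested passed in either direction. In the ERK5 and MEF2 route that induces Klf2 and Klf4 in endothelium, 0 of 5 tested genes passed by limma (median log2 fold change 0.19). Mapk7, the gene of ERK5, had 65.3, 70.7 and 81.9 normalised counts in Ly6C+ libraries, against 40.4, 46.8 and 87.8 in Ly6C- libraries, and the groups overlapped. Of 9 tested cofactors and ubiquitin ligases of KLF proteins, among them Sin3a, Ctbp1 and Ep300, 0 passed by limma and their median was 0.02. By edgeR and DESeq2, too, 0 genes of either list passed, beside 17.8% and 16.1% of all genes. At an unadjusted limma p under 0.05 there was 1 in the route (Mef2a) and 2 among the cofactors (Sin3b and Ctbp2). The share of all genes at that level is not given here, so these counts are not read as a result about the lists. Mef2a, Sin3b and Ctbp2 had log2 fold changes of -0.62, -0.42 and -0.50 (limma adjusted p = 0.109, 0.104 and 0.102). The part of this route and of the cofactors in the KLF differences was not tested.

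Klf9 is one of the genes that glucocorticoids induce. Of 10 other tested genes of that response, the receptor gene Nr3c1 included, 4 rose, 1 fell and 5 did not pass, with a median log2 fold change of 1.28. Over all genes tested, 9.41% were higher and 7.66% lower, with a median of -0.0007. The metallothionein gene Mt2 had 16268, 21692 and 18432 normalised counts in Ly6C+ libraries, against 2707, 3001 and 3742 in Ly6C- libraries (log2 fold change 2.58, SE 0.20; limma adjusted p = 7.45e-06). The kinase gene Sgk1 had a log2 fold change of 1.90, and the transcription factor genes Zbtb16 and Cebpd 3.17 and 1.97, both at low counts. The Cebpd call (adjusted p = 0.0369) was lost when replicate 1 or 3 of the Ly6C+ group (0.0515 and 0.119) or replicate 1 or 2 of the Ly6C- group (0.0596 and 0.114) was left out. Ddit4, an inhibitor of mTORC1 that hypoxia also induces, fell by 0.74 on the log2 scale at the edge of the threshold (adjusted p = 0.0497). It passed in 8 of 18 alternatives. Its adjusted p was 0.171 and 0.159 when replicate 1 or 3 of the Ly6C+ group was left out, and 0.128 and 0.0960 when replicate 1 or 2 of the Ly6C- group was. Nr3c1 itself did not pass (0.35, adjusted p = 0.379), nor did the classical targets Per1, Tsc22d3, Fkbp5 and Errfi1. The list median lies between the log2 fold changes of Tsc22d3 (0.92) and Errfi1 (1.64), whose groups overlapped. Errfi1 had 315, 445 and 323 normalised counts in Ly6C+ libraries, against 24.6, 167 and 350 in Ly6C- libraries.

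Klf10 is induced early by TGF-beta. Of 13 tested TGF-beta receptors, SMADs and inhibitors, 2 rose and 11 did not pass, with a median log2 fold change of 0.33, beside 9.41% of all genes called higher and 7.66% lower. The receptor genes Tgfbr3 and Tgfbr2 were the pair that rose. Tgfbr3, which encodes the coreceptor betaglycan, had 533, 686 and 814 normalised counts in Ly6C+ libraries, against 145, 86.8 and 126 in Ly6C- libraries (log2 fold change 2.51, SE 0.23). Tgfbr2 had 1148, 1094 and 1118 in Ly6C+ libraries, against 223, 291 and 405 in Ly6C- libraries (1.91, SE 0.21).

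Of 14 tested genes known as KLF targets from other cell types, 5 rose, 3 fell and 6 did not pass, with a median log2 fold change of 0.32, beside 9.41% of all genes higher and 7.66% lower. Those that rose were Cd55, a complement inhibitor, Thbd, the anticoagulant receptor thrombomodulin that KLF2 and KLF4 induce in endothelium, Txnip, the cell cycle inhibitor gene Cdkn1c, and Egr1. Thbd had 207, 134 and 272 normalised counts in Ly6C+ libraries, against 42.3, 57.8 and 42.0 in Ly6C- libraries (log2 fold change 2.04, SE 0.26; limma adjusted p = 0.00028). Cd55 rested on few reads in the Ly6C- group, with values of 47.0, 42.1 and 48.7 in Ly6C+ libraries, against 0, 2.55 and 3.93 in Ly6C- libraries. The Egr1 call (0.83, adjusted p = 0.0233) was lost when replicate 2 or 3 of the Ly6C+ group (0.0508 and 0.0828) or replicate 2 of the Ly6C- group (0.120) was left out, and with quantile normalisation (0.375), total scaling (0.0571) or no trend (0.0781).

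The 3 that fell encode growth factors. Pdgfa, a target of KLF5 in smooth muscle, had 78.1, 72.2 and 54.9 normalised counts in Ly6C+ libraries, against 239, 356 and 325 in Ly6C- libraries (log2 fold change -2.14, SE 0.21; limma adjusted p = 4.46e-05), so it was lower in the group in which Klf5 was lower. Vegfa had 322, 363 and 379 in Ly6C+ libraries, against 1123, 1035 and 996 in Ly6C- libraries (-1.57, SE 0.15). Tgfb1, which KLF6 activates in liver stellate cells, had 143, 91.0 and 59.5 in Ly6C+ libraries, against 615, 934 and 538 in the Ly6C- group (-2.86, SE 0.30), while Klf6 was higher in Ly6C+. Of the smooth muscle genes that KLF4 represses in smooth muscle, 6 of 6 tested fell, with a median log2 fold change of -3.92, beside 7.66% of all genes lower. Tagln, for example, had 293, 410.4 and 223 normalised counts in Ly6C+ libraries, against 5737, 5615 and 5255 in Ly6C- libraries, and Myh11 had 1 read over the Ly6C+ group. Whether any of these genes depends on a KLF was not tested.

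Klf2, Klf4 and Klf6 are themselves counted among the immediate early genes, which rise within minutes of a stimulus and also during enzymatic dissociation. Of 21 other tested genes of that kind, 16 rose and 5 did not pass, with a median log2 fold change of 0.83, against 9.41% of all genes called higher. Atf3 rose by 2.21, Myc by 1.66, Zfp36 by 1.58 and Socs3 by 1.46 on the log2 scale, and each passed in all 18 alternatives. Some other calls depended on the setting. Fos and Ier3 passed in 17 of 18, Jun and Junb in 16, Hspa8 in 14, Ier2 in 13 and Egr1 in 12. The smallest log2 fold change over the alternatives was 0.20 for Jun and 0.34 for Egr1. The summed level of the list was 56131 to 62467 normalised counts in Ly6C+ and 27622 to 31124 in Ly6C- libraries. The part of the dissociation response in the KLF differences was not tested.

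**Figure D4:**
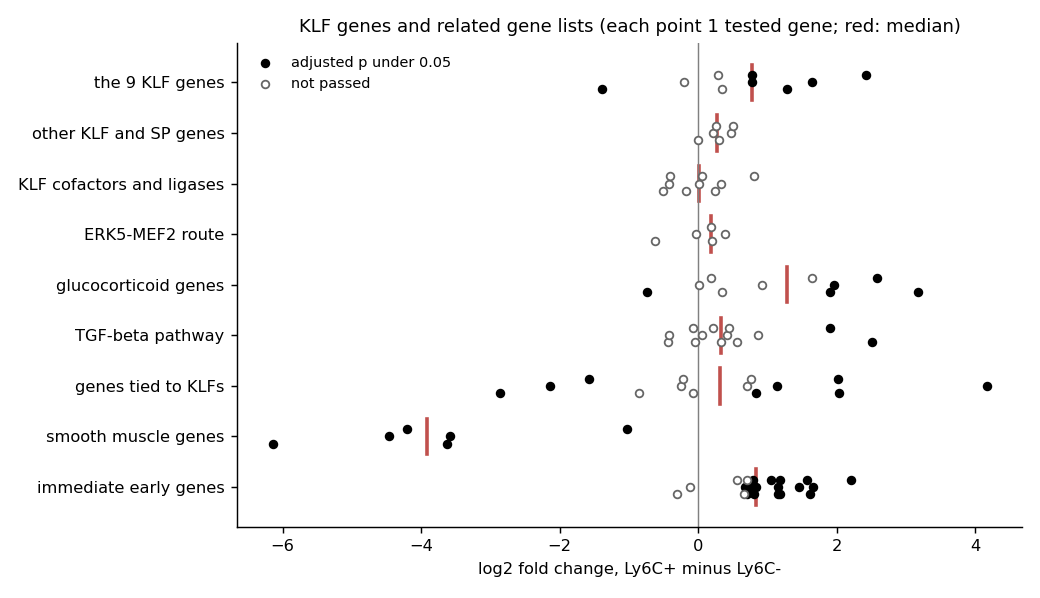
Log2 fold change (Ly6C+ minus Ly6C-) of every tested gene in the KLF family and in 8 related gene lists, 1 point a gene, with filled points for genes past the limma test and a red line at each list's median. The medians run from -3.92 for the smooth muscle genes to 1.28 for the glucocorticoid genes, with 0.78 for the 9 KLF genes.

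Genes whose profiles were most like those of the called KLF genes were found by the root-mean-square difference of log2 values centred per gene over the 6 libraries, among 6691 genes outside the family with a mean of at least 20. For Klf4 these were Adgrd1 (0.116) and Lgi2 (0.149), and for Klf2 they were Cpxm1 (0.081) and Ripor3 (0.101). Nfib (0.090) and Oas2 (0.106) were nearest to Klf6, Dtnbp1 (0.045) and Serpinb6a (0.065) to Klf3, and Tnfsf12 (0.056) and Cnpy3 (0.070) to Klf9. Slc7a7 (0.099) and Dysf (0.130) were nearest to Klf5. Within the family, Klf2 and Klf6 were each other's nearest members (0.294), as were Klf3 and Klf9 (0.281). With 6 libraries in the 2 groups, genes with a like difference between the groups come out as near by this measure.

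Transcripts of early response genes often carry the pentamer ATTTA in the 3′ UTR, a core of AU-rich elements that shorten mRNA life. In the GENCODE M21 transcript with the longest coding sequence, the 3′ UTR of Klf4 held 1 such pentamer (1.02 per kb) and that of Klf2 held 1 (1.36 per kb). Klf6 held 7 (2.25 per kb), Klf3 7 (1.87 per kb), Klf9 8 (2.48 per kb) and Klf5 4 (2.34 per kb). Among those that did not pass, Klf7 held 18 (2.87 per kb), Klf10 4 (2.68 per kb) and Klf13 3 (0.582 per kb). The median over 8898 tested genes was 1.19 per kb. By this density Klf4 and Klf2, with the largest positive differences, were near the middle of those genes, at percentiles 46.1 and 53.6. The other called genes stood higher, with Klf6 at 70.6, Klf3 at 64.0, Klf9 at 73.9 and Klf5 at 72.1. Klf7 was at 78.9, Klf10 at 76.8 and Klf13 at 37.0.

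**Figure D5:**
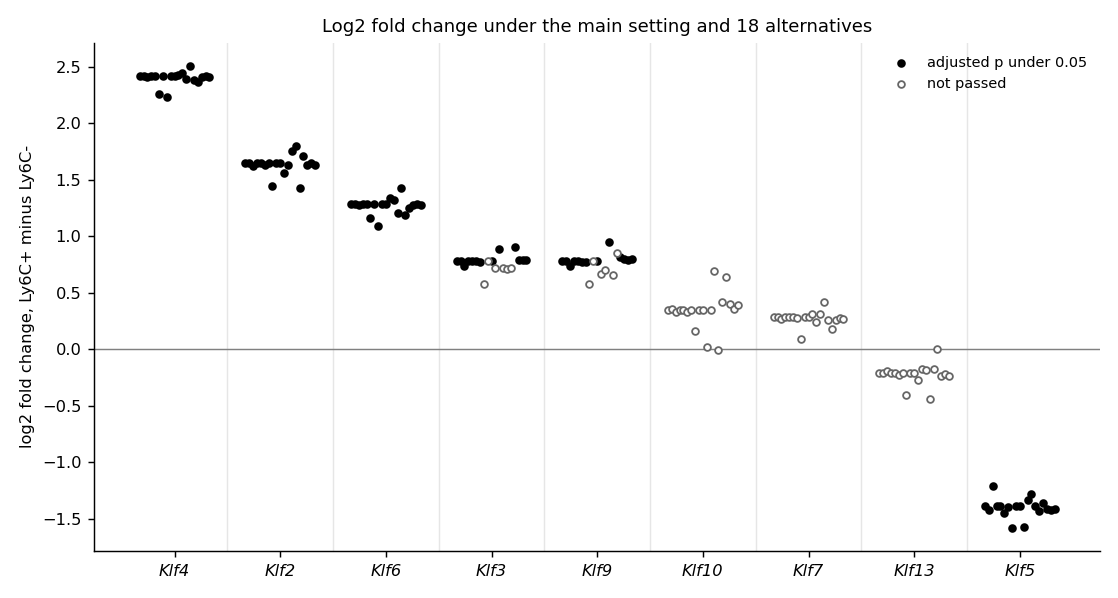
Log2 fold change (Ly6C+ minus Ly6C-) of the 9 KLF genes under the main setting and 18 alternatives, 1 point a setting, filled where the adjusted p was under 0.05. All points of Klf4, Klf2, Klf6 and Klf5 are filled, Klf3 and Klf9 have 6 open points each, and those of Klf7, Klf10 and Klf13 are all open.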

How the data were processed

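The 9 genes, the gene lists and the tests were chosen with earlier results of these data known. Per the submitters' processing notes, the tools were HTSeq, STAR 2.4.2a and bcl2fastq, and the build was mm10. The deposited values are a signal, normalised counts in which the authors had divided each count by 1 size factor per library. All values (100%) were whole multiples of 1 step per library within 0.001, so whole reads were recovered. The annotation, the tool for the size factors, and the handling of strand, molecular tags and gene filters are not given in the sources used here.

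Values were taken to log2 after adding 1. Genes with a mean of at least 5 (9646 of 12235, with 99.6% of the reads) were tested in R 4.3.3 with limma 3.58.1 (mean-variance trend in the prior), with no block and Benjamini-Hochberg adjustment. The 18 alternatives included edgeR 4.0.16 quasi-likelihood and DESeq2 1.42.0 fits on recovered reads, other pseudocounts, filters and scalings, the replicate block and each library left out. The pipeline was tested on simulated data. There limma called 30.6% of genes with a simulated 2-fold difference and 83% of those with a 4-fold one. Of its 117 calls, 4 were false. Far fewer genes were changed in the simulation than the 1647 called in the data. The same adjusted threshold was therefore stricter there, and the simulated shares are not the power of the fit on these libraries. A gene that did not pass is in any case not thereby shown to be equal in the groups. No gene list was given a set test.

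Named genes are the 9, the other KLF genes in the table, up to 4 genes per list with the smallest p, and the 2 genes nearest in profile to each called KLF gene. Other genes, given as marker levels, as examples or to fill up a count of at most 5, were chosen after their values were seen. Gene positions came from GENCODE M21 (98.6% of symbols found) and promoters from RefSeq. Coefficients of variation from counting cover counting error only.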

Additional observations from a re-analysis of the deposited data

How the results depend on the processing

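Klf2, Klf4, Klf5 and Klf6 kept their direction and their call in all 18 alternatives, and Klf7 and Klf13 kept their direction and did not pass in any. Members called higher numbered 3 in place of 5 with each library scaled to its total and also with no mean-variance trend, where Klf3 and Klf9 were lost, and 3 to 5 with 1 library left out. Under scaling to the total the median over all tested genes was -0.19 on the log2 scale, with 1211 genes called lower in place of 739 and 37.4% of calls higher in place of 55.1%. Relative to that shift no direction among the 9 changed. With 1 library left out, 461 to 735 genes were called lower. For Klf10 the log2 fold change was -0.0023 to 0.69 with 1 library left out, in place of 0.35; the negative value came without Ly6C- replicate 1 (limma adjusted p = 0.999). The cause was not tested for these. With the replicate number as a block, limma called 2088 genes in place of 1647 and edgeR 2113, and 6 of the 9 members. Deviations of same-numbered libraries correlated at 0.129, 0.052 and 0.167, so the numbers were not taken as pairs; every library did correlate best with its own number, a hint from the data and not from the design. Precision of Klf5 and of the lowest Ly6C- values was limited by reads, 73 and 132 for Klf5.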
